A study of Homo sapiens with 36 samples.

Results

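The genes described here were grouped under prostaglandin synthesis, though not every one is best known for that role. They were chosen by their symbol: PLA2G4A, PLA2G4E, PTGS1, PTGS2, PTGES, PTGES2, PTGES3 and PTGIS, which is 8 genes of the 19137 in the tables. These symbols had 16 transcript rows of 36499, and the transcript with the highest mean count over the 36 libraries stood for each gene.

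Ribosome profiling sequences the stretches of messenger RNA that ribosomes protect (footprints), and it was set beside RNA sequencing in 2 human cell models. In MCF10A-ER-Src, a breast epithelial line, the Src kinase is fused to the hormone-binding part of the oestrogen receptor and was switched on with 1 µM 4-hydroxytamoxifen for 1, 4 or 24 h. Uninduced ER-Src cells were taken at 0 h or after 1, 4 or 24 h of ethanol, the vehicle. The other model consists of BJ skin fibroblast derivatives labelled ELR, EL and EH, whose letters the labels do not explain. As background, published BJ series of this kind carry telomerase in every line, SV40 genes in the later lines and oncogenic HRAS in the last. Cycloheximide (100 µg/ml for 90 s) held elongating ribosomes in place, and harringtonine (2 µg/ml for 5 min) held ribosomes that had just started. Each tamoxifen time had 2 cycloheximide libraries, uninduced cells had 4 (0 h as replicate 1, ethanol as replicate 2), and ELR, EL and EH had 2 each. RNA came from 1 library per tamoxifen time, 4 uninduced libraries and 1 library per BJ line. Harringtonine footprints came from 4 ER-Src libraries (0, 1, 4 and 24 h) and from 2 libraries per BJ line.

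Total counts ran from 1178012 to 3628073 in cycloheximide libraries, 2071883 to 3008760 in RNA and 129175 to 374359 under harringtonine. Levels are CPM, the count of a gene scaled to a fixed library total and made comparable between libraries of one assay. A gene was called changed where the Benjamini-Hochberg adjusted p of edgeR's two-sided quasi-likelihood test, taken over all genes tested, was under 0.05. No label says that replicates were separate cultures, so p-values may measure technical spread only. The spread beyond counting error that edgeR fitted was 1.8% in BJ cycloheximide libraries. It was 13.9% in ER-Src ones, where uninduced libraries differ in time and vehicle. The p-values and shares of genes called are therefore not comparable between the models. In these bulk libraries, fewer cells expressing a gene and less RNA per cell cannot be told apart. The summed level of 8 epithelial markers was 9613 to 19480 CPM in ER-Src footprints and 11.4 to 65.0 CPM in BJ footprints. In footprints of all models, 9 leukocyte and mast cell markers summed to 49.7 to 172 CPM, of which CD3E, MS4A1 and TPSAB1 were at 0 throughout, and 4 platelet markers to at most 2.43 CPM. The 5 endothelial markers summed to 34.8 to 36.2 CPM in ELR, where TIE1 alone had counts, 3.18 to 5.00 CPM in EL and at most 1.80 CPM in EH and ER-Src, and PECAM1 and CDH5 were at 0 throughout. The part of these markers in the results was not tested.

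As background, phospholipases A2 of the cytosolic group free arachidonic acid from membrane lipids. The cyclooxygenases PTGS1 (COX-1) and PTGS2 (COX-2) turn it into an endoperoxide, from which terminal synthases make the active prostaglandins. PTGES, PTGES2 and PTGES3 make prostaglandin E2 and PTGIS makes prostacyclin. PTGS1 is commonly described as the steady form, and PTGS2 as the form induced by growth factors and cytokines, with a short-lived message that carries AU-rich elements. PTGES3 is better known as p23, a co-chaperone of HSP90.

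Positions on GRCh37 are those of the whole GENCODE gene over all its transcripts, and exons are those of 1 annotated transcript per gene. The accession in brackets names the transcript counted, which may start or end inside that span. The PTGS2 gene (NM_000963) lies on the minus strand of chromosome 1 from 186640923 to 186650054 and has 10 exons. PLA2G4A (NM_024420) is its neighbour on the plus strand, from 186798081 to 186958113, with 18 exons, and 148026 bases without another protein-coding gene separate them. PTGS1 (NM_000962) spans 125132809 to 125157982 on the plus strand of chromosome 9, with 11 exons. The same chromosome holds both membrane-bound prostaglandin E synthases on the minus strand, PTGES (NM_004878, 132500610 to 132515321) and PTGES2 (NM_025072, 130882972 to 130890741). PTGES3 (NM_006601) lies on chromosome 12 from 57057125 to 57082192, PTGIS (NM_000961) on chromosome 20 from 48120411 to 48184674, and PLA2G4E (NM_001206670) on chromosome 15 from 42273592 to 42343388, all on the minus strand. PTGES3 has 5 annotated pseudogenes, so some of its reads may belong to them. PTGS2 and PLA2G4E overlap annotated genes of the other strand, and no source used here says whether the counting used strand.

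Footprints arise where ribosomes begin and travel, so the start codons are shown first, read from GRCh37 on each gene's own strand. Capitals mark the base 3 before the start codon, the start codon and the base after it.
PLA2G4A: attgaaaccAaaATGTcatt
PLA2G4E: agagctgccGtgATGCtcct
PTGS1: agcagccgcGccATGAgccg
PTGS2: cccgccgctGcgATGCtcgc
PTGES: cgctggccaGagATGCctgc
PTGES2: ggcggagcgAacATGGaccc
PTGES3: gccccgttcAcaATGCagcc
PTGIS: gccagccccGcgATGGcttg
All 8 genes had a purine at the first marked base, the position that matters most in the Kozak context, and none had an ATG upstream in its annotated leader. The leaders ran from 12 bases (PTGES2 and PLA2G4E) to 285 (PTGES3), and the shortest leave little room for an ATG. Shares over all genes are not given for either trait.

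The cyclooxygenases had the largest footprint changes of the 4 members tested between EL and EH. Their messages differ in the 3′ untranslated end, which as background can govern stability. The 3′ end of PTGS2 begins with overlapping copies of ATTTA, the core of AU-rich elements, marked in capitals in its first 30 bases after the stop codon.
PTGS2 3′ end: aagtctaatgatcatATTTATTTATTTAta
ATTTA occurred 22 times in the 2562 bases of the PTGS2 3′ end (8.59 per kb), against 3 times in the 3159 bases of PTGS1 (0.95 per kb). PLA2G4A had 8.46 per kb over 473 bases, PTGES3 had 5.31 per kb over 1130 bases, and PTGES2 had none over 452 bases. PLA2G4E, PTGES and PTGIS had 0.92, 0.79 and 0.49 per kb. The part of ATTTA in the footprint changes was not tested.

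The 100 bases before the start of transcription are given for the same pair. They are from the RefSeq promoter table matched to GRCh37, which held 7 of the 8 genes. For both genes this start lies inside the wider GENCODE span given above. Capitals mark TATAAA and TGACG (the core of the cAMP response element, here on the other strand as CGTCA) in PTGS2 and GGGCGG (the GC box) in PTGS1.
PTGS2 promoter, chr1:186649556-186649655, minus strand: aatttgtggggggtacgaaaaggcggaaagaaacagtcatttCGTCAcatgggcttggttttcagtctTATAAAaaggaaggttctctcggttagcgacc
PTGS1 promoter, chr9:125132712-125132811, plus strand: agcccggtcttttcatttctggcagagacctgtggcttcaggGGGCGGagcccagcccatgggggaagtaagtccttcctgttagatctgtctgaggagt
On either strand, TATAAA was found in 11.5% of 35116 promoter windows of 300 bases, TGACG in 24.6% and GGGCGG in 45%. These shares are for the longer windows. That of the PTGS1 start printed also held TATAAA, at −208 and outside the stretch shown. PTGS1 had a second window, chr9:125137331-125137630, not printed. It held no TATAAA, and its GGGCGG lay at −202 from that start. A match describes the sequence only and does not show a bound factor.

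In the BJ fibroblasts, PTGS1 was the gene with the widest range. PTGS1 footprints were 1.15 and 0.533 CPM in ELR, 17.3 and 20.4 CPM in EL, and 491 and 493 CPM in EH. The groups did not overlap, and EL and ELR each stood far below EH. Here and below, groups without overlap hold few libraries, and the share of all genes without overlap is not given. PTGS1 fell 26-fold in EL against EH (log2 change −4.70 ± 0.11 SE, adjusted p = 5.04e-48), and fell again in ELR against EL (−4.28 ± 0.45, adjusted p = 6.21e-13). Here and below, the SE of a fit is the log2 change divided by the square root of the test's F, an approximation. With few counts it can be smaller than counting error. For ELR against EL it gave a 95% interval of −5.17 to −3.39. The 4 PTGS1 counts in ELR against 90 in EL gave a counting interval of 7.95 to 79.0-fold lower. The 4 PTGS1 counts in ELR against 1193 in EH gave a ratio 553-fold lower, with a 95% counting interval of 215 to 2033-fold. Without ELR replicate 1, PTGS1 was at −4.94 against EL and −9.63 against EH.

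PTGS1 RNA followed the same order. It had no count in the ELR library, 14 counts (6.32 CPM) in EL and 398 counts (178.5 CPM) in EH. With a floor of 3 counts for ELR, PTGS1 RNA was at least 163-fold lower in ELR than in EH, and EL was 28.2-fold lower than EH with a counting interval of 16.6 to 52.1-fold. RNA has 1 library per BJ line, so these ratios have no replicate check, and intervals and floors cover counting error only.

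Harringtonine footprints, made from separate libraries of the same lines, gave PTGS1 at 5.06 and 0 CPM in ELR, 12.03 and 17.96 CPM in EL, and 183.5 and 348 CPM in EH. PTGS1 was the 1 of 2 members tested there that fell in EL against EH (−4.16 ± 0.48, adjusted p = 4.93e-16) and in ELR against EH (−6.48 ± 0.62, adjusted p = 7.72e-24). The ELR value for PTGS1 rests on 1 count, with a counting interval of 19.4 to 4496-fold below EH, wider than its SE implies. This ELR against EH value was −8.45 without ELR replicate 1, a fitted value with no ELR count left, and −5.59 without ELR replicate 2. Of the 3553 genes tested, 18.5% were called in EL against EH (7.57% higher, 11% lower) and 30.7% in ELR against EH (13.3% higher, 17.4% lower). Between ELR and EL, with 1 and 5 counts, no member passed the test in edgeR (adjusted p = 0.194 for PTGS1, 0 members at an unadjusted p under 0.05, 0 in DESeq2), where 16.3% of genes were called (6.39% higher, 9.91% lower). PTGES3, the other member tested under harringtonine, had intervals that included no change in all 3 comparisons.

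The summed level of 6 fibroblast markers moved with PTGS1, at 386 to 408 CPM in ELR, 3283 to 3331 CPM in EL and 24350 to 24520 CPM in EH footprints. DCN was at 0 in ELR, and the other 5 markers had counts in every BJ line. The part of this marker change in the PTGS1 result was not tested.

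PTGS2 did not follow PTGS1 through the lines. PTGS2 footprints were 27.9 and 23.4 CPM in ELR, 5.77 and 4.54 CPM in EL, and 54.7 and 48.8 CPM in EH. ELR lay between the other lines with no overlap. PTGS2 fell in EL against EH (−3.29 ± 0.27, 9.80-fold, adjusted p = 9.36e-18), rose in ELR against EL (2.33 ± 0.28, 5.02-fold, adjusted p = 6.99e-11) and was lower in ELR than in EH (−0.97 ± 0.19, adjusted p = 1.51e-05).

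PTGS2 RNA showed a different proportion. It had 101 counts (36.9 CPM) in ELR, 53 counts (23.9 CPM) in EL and 1011 counts (453 CPM) in EH. ELR RNA was 12.3-fold lower than EH RNA (counting interval 10.0 to 15.2-fold), while ELR footprints were 1.95-fold lower than EH footprints. Between ELR and EL the RNA ratio was 1.54 (1.096 to 2.19), while footprints differed 5.02-fold. PTGS2 harringtonine counts were few, 10 in ELR, 5 in EL and 15 in EH, and the gene did not pass the filter on low counts there.

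**Figure D1:**
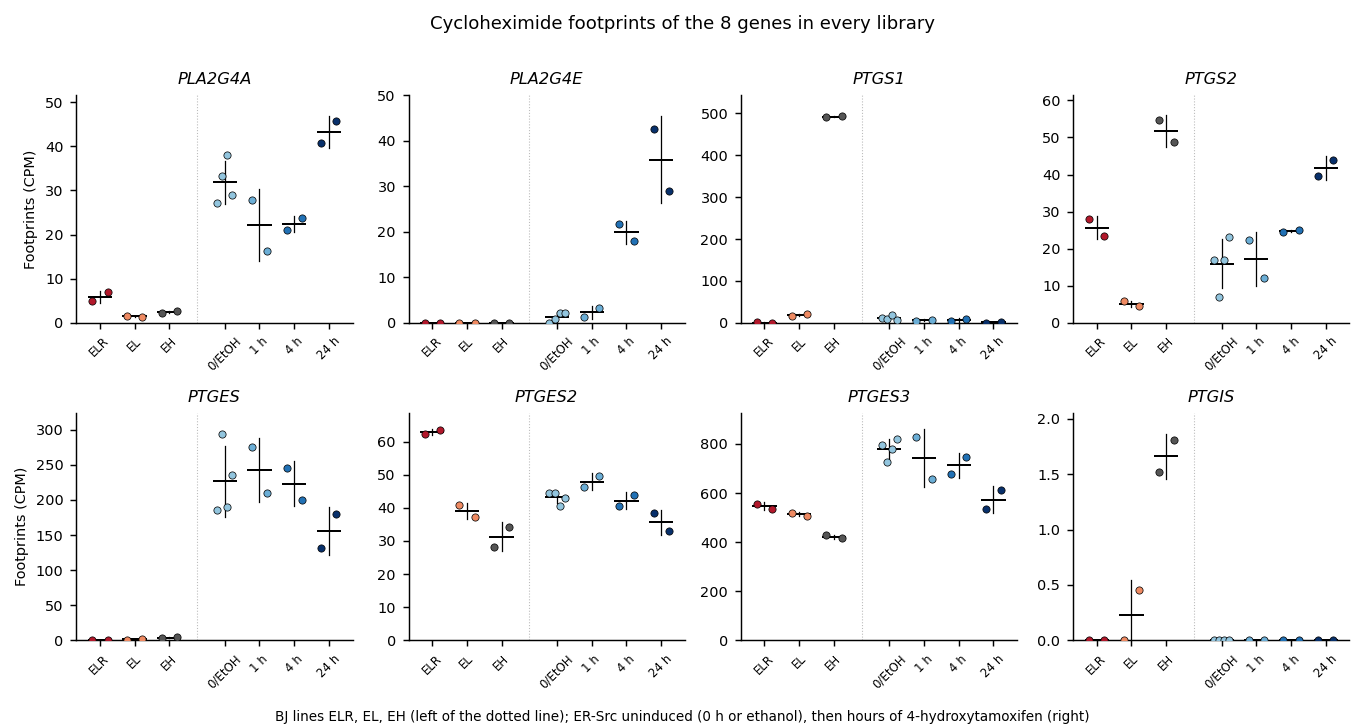
Cycloheximide footprints in CPM for each of the 8 genes, with 1 point per library, the mean as a bar and the SD as a vertical line. ELR, EL and EH stand left of the dotted line and the ER-Src time course right of it, and each panel has its own scale. PTGS1 is at 491 and 493 CPM in EH and at most 20.4 CPM elsewhere, PTGES is at 132 CPM or more in ER-Src libraries only, and PLA2G4E is high only at 4 and 24 h.

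The terminal synthases of prostaglandin E2 that were tested, PTGES2 and PTGES3, differed by at most 2.07-fold between lines. PTGES3 footprints were 557 and 534 CPM in ELR, 519 and 508 CPM in EL, and 428 and 417 CPM in EH. PTGES3 rose in EL against EH (0.29 ± 0.06, 1.22-fold, adjusted p = 1.36e-05) and in ELR against EH (0.40 ± 0.06, adjusted p = 4.31e-09). The EL against EH call was lost when all 16 cycloheximide libraries shared one estimate of the spread (0.26, adjusted p = 0.145). Its step between ELR and EL was 0.11 ± 0.05 (adjusted p = 0.0484), and DESeq2 and each of the 4 fits without 1 library put it above the threshold (adjusted p = 0.348 in DESeq2 and 0.0715 to 0.286 without a library).

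PTGES2 footprints were 62.2 and 63.4 CPM in ELR, 40.8 and 37.2 CPM in EL, and 28.1 and 34.3 CPM in EH. The 3 lines, with 2 libraries each, did not overlap, though the step between EL and EH did not pass the test. PTGES2 rose in ELR against EL (0.70 ± 0.14, adjusted p = 2.78e-05) and against EH (1.049 ± 0.18, adjusted p = 7.53e-07), and EL differed from EH by 0.35 ± 0.20 (adjusted p = 0.152). PTGES2 RNA was 49.4 CPM in ELR, 37.5 CPM in EL and 24.7 CPM in EH, the same order as its footprints.

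The other 4 members had few or no footprints in the BJ lines, did not pass the filter on low counts and were not tested there. PTGES, the inducible microsomal synthase, had 3 counts in ELR, 8 in EL and 9 in EH over both libraries. PTGIS had 0 counts in ELR, 1 in EL and 4 in EH, and its RNA had 0 counts in ELR, 0 in EL and 10 in EH, which puts ELR and EL at least 4.09-fold and 3.31-fold below EH in RNA. PLA2G4A had 26 counts in ELR, 7 in EL and 6 in EH, a ratio of 3.97 for ELR over EL (counting interval 1.68 to 10.8). PLA2G4E had no count in any of the 15 BJ libraries.

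Read against all genes, the share of members called in the BJ lines was not a result about these genes. EL against EH called 3 of the 4 members tested (1 higher, 2 lower), where 41.5% of 9996 genes were called (19.1% higher, 22.4% lower). ELR against EL called all 4 members tested (3 higher, 1 lower), where 36.1% were called (17.4% higher, 18.7% lower), and ELR against EH called all 4 members tested (2 higher, 2 lower), where 53.4% were called (25.5% higher, 27.8% lower). Of the genes called lower, 805 in EL and 1394 in ELR were at least 2-fold below EH, a size that PTGS1 passed in both and PTGS2 in EL.

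**Figure D2:**
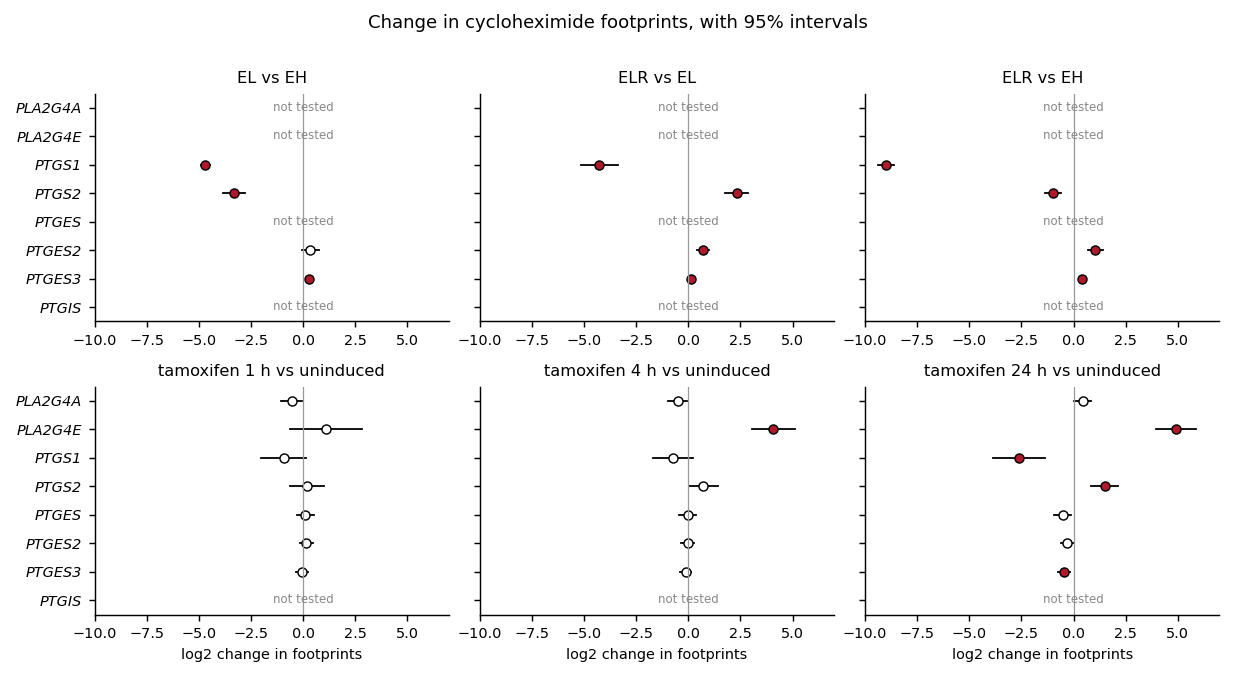
Log2 change in cycloheximide footprints for each gene in 6 comparisons, each panel title giving the numerator before the denominator. The 95% intervals are approximate, with an SE taken from the test's F, and can be narrower than counting error where counts are few. Filled points passed the adjusted p of 0.05 and open points did not, and "not tested" marks genes removed by the filter on low counts. PTGS1 lies at −4.70, −4.28 and −8.98 in the BJ panels, and PLA2G4E at 4.08 and 4.92 at 4 and 24 h of tamoxifen.

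Ribosome loading compares how far footprints changed with how far RNA changed, and an interaction of assay and condition tests it. As a level it is given as footprint CPM per RNA CPM. Coding length cancels in this ratio only if both assays were counted over the same region, which the sources used here do not say. Ranks of the ratio between genes carry this limit. The median over the genes with at least 10 RNA CPM was 0.793 in ELR, 0.802 in EL and 0.807 in EH.

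PTGS2 was the member whose loading differed between lines. Its footprints per RNA were 0.695 in ELR, 0.216 in EL and 0.114 in EH. In EH only 253 of 8348 genes, 3.0%, had a lower ratio than PTGS2, while in ELR 44.5% of 8196 genes did. The interaction was 2.60 ± 0.24 for ELR against EH (6.05-fold, adjusted p = 1.16e-14), and there 1 of 5 members tested was called higher, with 7.48% of 11081 genes called (3.22% higher, 4.26% lower). ELR against EL gave 1.64 ± 0.39 (adjusted p = 0.00487), again 1 of 5 members, with 2.97% of genes called (1.03% higher, 1.94% lower). EL against EH gave 0.95 ± 0.40 (adjusted p = 0.145), and no member was called there in edgeR (1 member at an unadjusted p under 0.05, with 6.71% of genes called, 3.78% higher and 2.92% lower).

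The BJ loading tests take their spread from footprint replicates, since RNA has a single library per line that is assumed to vary alike. That spread was 1.79% beyond counting error, against 12.5% over the 26 cycloheximide and RNA libraries of both models. With the spread estimated over all 26 cycloheximide and RNA libraries of both models, ELR against EH stayed called for PTGS2 (2.71, adjusted p = 0.0372), whereas ELR against EL did not (1.71, adjusted p = 1). Without ELR replicate 1 the ELR against EL value was 1.5 (adjusted p = 0.0631), and DESeq2 gave PTGS2 no adjusted p for ELR against EL or EL against EH.

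No other member passed the loading test between the lines. PTGS1 had 2.99 footprint CPM per RNA CPM in EL and 2.76 in EH, and its EL against EH interaction was 0.11 ± 0.39, a 95% interval of −0.66 to 0.89. PTGES3 was high in every line, at 4.50 in ELR, 5.34 in EL and 5.32 in EH, above 95.6% to 97.0% of genes. PTGES2 was at 1.27 in ELR (above 69.2% of genes), 1.04 in EL (61.4%) and 1.27 in EH (68.5%), and PLA2G4A was low at 0.354 in ELR, 0.179 in EL and 0.174 in EH.

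**Figure D3:**
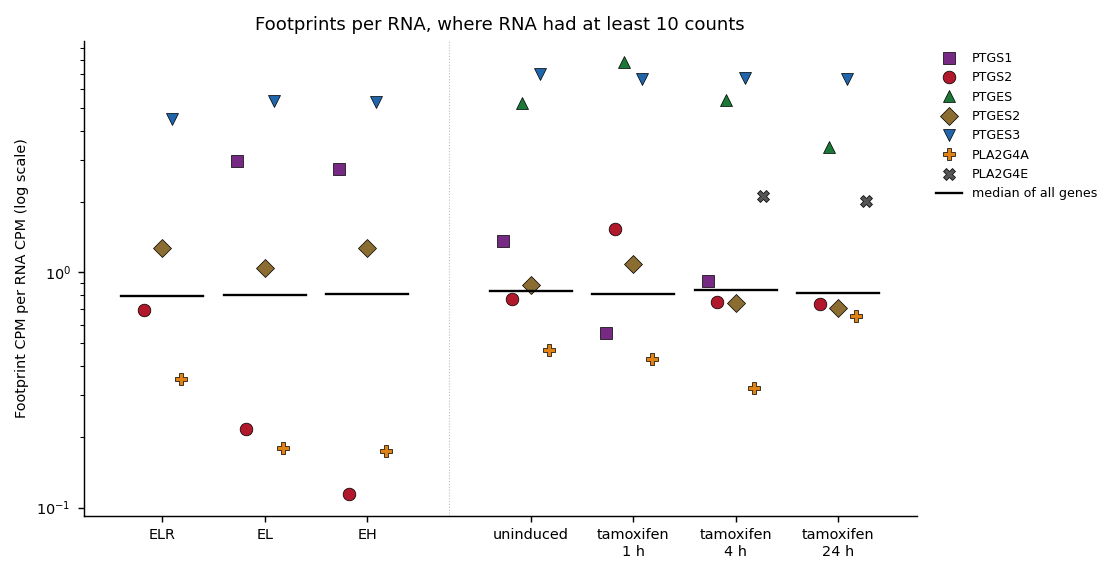
Footprint CPM per RNA CPM on a log axis for each gene and condition in which RNA had at least 10 counts, with the median over all genes as a black line. ELR, EL and EH stand left of the dotted line. PTGS2 is at 0.695 in ELR, 0.216 in EL and 0.114 in EH and between 0.730 and 1.53 in the ER-Src conditions, where PTGES3 lies at 6.61 to 6.99.

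In the ER-Src time course, PLA2G4E, a calcium-dependent phospholipase family member known as an N-acyltransferase, had the largest change among the members. Its footprints were 0, 0.784, 2.16 and 2.23 CPM in the 4 uninduced libraries, 1.36 and 3.27 CPM at 1 h, 21.6 and 18.1 CPM at 4 h, and 42.6 and 29.1 CPM at 24 h. The 4 h and 24 h libraries did not overlap with the uninduced or 1 h ones. PLA2G4E rose at 4 h (4.08 ± 0.48, adjusted p = 0.000588) and at 24 h (4.92 ± 0.45, adjusted p = 1.64e-06), and at 24 h against 1 h (3.83 ± 0.55, adjusted p = 0.000315; PLA2G4E was at 4.64 without 1 h replicate 2). The 167 counts at 24 h against 12 in uninduced cells gave a ratio of 30.5, with a counting interval of 17.0 to 60.1.

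PLA2G4E RNA was at 0 in 3 of the 4 uninduced libraries and at 4 counts in the ethanol 1 h one. It was at 0 at 1 h, 27 counts (9.41 CPM) at 4 h and 49 counts (17.9 CPM) at 24 h. The RNA ratio at 24 h was 46.1, with a counting interval of 16.9 to 176, and the test gave 5.36 ± 0.86 (adjusted p = 0.00141), while DESeq2 gave an adjusted p of 0.781. Without the ethanol 1 h library, which held the only uninduced counts, PLA2G4E had a fitted value of 8.5 (adjusted p = 0.00436), which has no counts behind its uninduced level. Harringtonine counts, from 1 library per time, were 0 in uninduced cells, 1 at 1 h, 6 at 4 h and 27 at 24 h.

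PLA2G4A, the classical calcium-activated enzyme that frees arachidonic acid, had 27.1, 28.99, 33.2 and 38.1 CPM in uninduced footprints, 27.9 and 16.4 CPM at 1 h, 21.1 and 23.7 CPM at 4 h, and 40.8 and 45.8 CPM at 24 h. It rose at 24 h against 1 h (0.99 ± 0.26, adjusted p = 0.017), a call lost without 1 h replicate 2 (0.64, adjusted p = 0.231) or 24 h replicate 2 (adjusted p = 0.131), and its 24 h difference from uninduced cells was 0.44 ± 0.20 (adjusted p = 0.154). Its RNA at 24 h was 66.7 CPM, inside the uninduced range of 51.6 to 86.8 CPM, of which the top was ethanol 24 h.

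The cyclooxygenases moved in opposite directions at 24 h. PTGS2 footprints were 7.05, 16.9, 16.9 and 23.0 CPM in uninduced cells, 22.4 and 12.01 CPM at 1 h, 24.5 and 24.9 CPM at 4 h, and 39.5 and 44.02 CPM at 24 h. Both 24 h values lay above all other ER-Src values. The lowest uninduced value, 7.05 CPM, was that of ethanol 24 h. PTGS2 rose at 24 h against uninduced cells (1.49 ± 0.30, 2.81-fold, adjusted p = 0.00326) and against 1 h (1.31 ± 0.39, adjusted p = 0.0343), and the 4 h difference was 0.72 ± 0.33 (adjusted p = 0.637). The 24 h call was lost without tamoxifen 24 h replicate 2 (1.41, adjusted p = 0.0676), and the call against 1 h was lost without 24 h replicate 1 (adjusted p = 0.0821), without 24 h replicate 2 (0.18) and without 1 h replicate 2 (0.301).

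PTGS2 RNA in uninduced cells was 38.4 CPM at 0 h and 12.9, 13.3 and 18.1 CPM after ethanol. It was 11.3 CPM at 1 h of tamoxifen, 33.1 CPM at 4 h and 57.2 CPM at 24 h, which lay above every uninduced library. Against all 4 uninduced libraries the 24 h difference was 1.46 ± 0.42 (adjusted p = 0.0554), and against the 3 ethanol libraries it was 1.94 (adjusted p = 0.00149). Without the ethanol 24 h RNA library it was 1.3 (adjusted p = 0.00592).

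PTGS1 went the other way. Its footprints were 6.69, 9.67, 11.8 and 19.1 CPM in uninduced cells, 4.76 and 7.64 CPM at 1 h, 3.42 and 9.97 CPM at 4 h, and 0.608 and 2.70 CPM at 24 h. Both 24 h libraries lay under every other ER-Src library. PTGS1 fell at 24 h (−2.61 ± 0.58, adjusted p = 0.00625), with 10 counts against 134, a ratio 6.12-fold lower with a counting interval of 3.23 to 13.1-fold. Without tamoxifen 24 h replicate 1 PTGS1 was at −2.14 (adjusted p = 0.0683), and without replicate 2 at −4.19 (adjusted p = 0.0374). PTGS1 RNA at 24 h was 2.19 CPM, against 4.02 to 12.9 CPM in uninduced cells, a difference of −1.98 ± 0.75 (adjusted p = 0.153). The 4.02 CPM was that of ethanol 24 h, with 10 counts against 6 at 24 h of tamoxifen.

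Among the terminal synthases, PTGES was abundant throughout. Its footprints were 185, 190, 236 and 294 CPM in uninduced cells, 275 and 211 CPM at 1 h, 246 and 200.3 CPM at 4 h, and 132 and 180.3 CPM at 24 h, with the 24 h libraries lowest. The 24 h difference for PTGES was −0.53 ± 0.20 (adjusted p = 0.0937), and it passed the threshold with no filter on low counts (−0.51, adjusted p = 0.0323) and in one fit of all 16 cycloheximide libraries (−0.52, adjusted p = 0.0469). PTGES RNA at 24 h was 45.6 CPM, inside the uninduced range of 28.8 to 67.9 CPM. The highest uninduced PTGES values, 67.9 CPM in RNA and 294 CPM in footprints, were both those of ethanol 24 h. Uninduced PTGES RNA was 35.0, 41.5 and 67.9 CPM after 1, 4 and 24 h of ethanol. PTGES3 footprints were 533 and 612 CPM at 24 h, against 725 to 820.5 CPM in uninduced cells, and it fell, with a log2 change of −0.445 (SE 0.13, adjusted p = 0.0343). That call was lost in 5 of the 6 fits without 1 library (adjusted p from 0.0179 to 0.297 over the 6). PTGES2 was 38.3 and 32.9 CPM at 24 h, against 40.7 to 44.4 CPM in uninduced cells, a difference of −0.29 ± 0.15 (adjusted p = 0.229). PTGIS had no count in any ER-Src library.

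**Figure D4:**
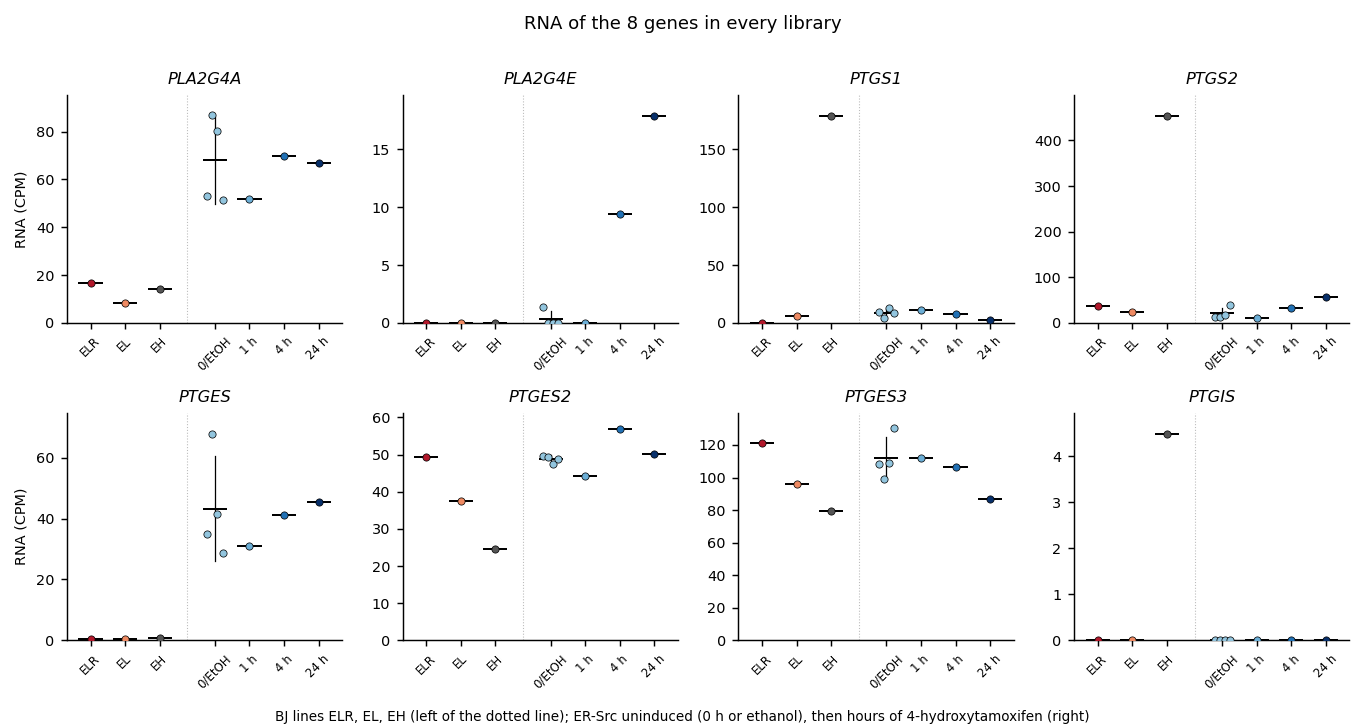
RNA in CPM for each of the 8 genes, with 1 point per library, the mean as a bar and, for the 4 uninduced libraries, the SD as a vertical line. ELR, EL and EH (1 library each) stand left of the dotted line. PTGS2 RNA is at 36.9 CPM in ELR, 23.9 CPM in EL and 453 CPM in EH, and PLA2G4E RNA is at 9.41 and 17.9 CPM at 4 and 24 h of tamoxifen.

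Over the footprint time course, edgeR called 0 of the 7 members tested at 1 h (1 at an unadjusted p under 0.05, 0 in DESeq2), 1 at 4 h and 4 at 24 h (2 higher, 2 lower). The share of the 10193 genes called was 0.0196% at 1 h, 0.854% at 4 h (0.834% higher) and 14.6% at 24 h (8.8% higher, 5.84% lower). With either tamoxifen 24 h replicate left out, 24 h called 2 members (766 genes without replicate 1, 703 without replicate 2). At 24 h against 1 h, 3 of 7 members rose, where 13.6% of genes were called (7.77% higher, 5.88% lower). Without 1 h replicate 2 or 24 h replicate 2 that comparison called 1 member (488 and 554 genes). RNA called 0 of 7 members at 1 h (0.00942% of 10612 genes, 0 members at an unadjusted p under 0.05, 0 in DESeq2), 0 at 4 h (0.16% of genes, 1 member at an unadjusted p under 0.05, 0 in DESeq2) and 1 at 24 h (0 members in DESeq2), where 6.47% of genes were called (4.67% higher, 1.8% lower). Without the ethanol 24 h RNA library, RNA called 1 member at 4 h and 3 at 24 h. Uninduced footprint libraries mix 0 h (replicate 1) with ethanol (replicate 2), so vehicle and replicate number cannot be told apart there. Uninduced libraries also differ in hours of ethanol, with 1 library per ethanol time in each assay. No test therefore matched tamoxifen to ethanol of the same time. Among replicate 2 libraries alone, 24 h called 2 members and 4 h called none, with PLA2G4E at 4.18 at 4 h (adjusted p = 0.212), and PTGS1 at −2.28 (adjusted p = 0.068) and PTGES3 at −0.31 (adjusted p = 0.411) at 24 h.

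Loading did not pass the test for any member during induction. In edgeR and in DESeq2, 0 of 7 members were called at 1, 4 and 24 h, with 0 members at an unadjusted p under 0.05 at each time in edgeR, and DESeq2 gave PTGS2 and PLA2G4E no adjusted p at 24 h. Over all 11133 genes 0 were called at 1 h, 0 at 4 h and 49 at 24 h (0.44% of all genes, with 0.00898% higher and 0.431% lower). For PTGS2 the 24 h interaction was −0.01 ± 0.66, with a 95% interval of −1.38 to 1.37, so a change within those bounds was not excluded. PTGS2 footprints per RNA were 0.774 in uninduced cells, 1.53 at 1 h, 0.746 at 4 h and 0.730 at 24 h. PTGES and PTGES3 had some of the highest ratios, at 3.43 to 7.82 and 6.61 to 6.99, above 93.5% to 98.4% and 98.0% to 98.5% of genes. Their coding sequences, of 456 and 480 bases, were the shortest of the 8 genes. The part of length in these ratios was not tested.

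Set beside EH fibroblasts, uninduced ER-Src cells had more footprints of PTGES and PLA2G4A and fewer of both cyclooxygenases. PTGES averaged 226 ± 50.6 CPM in uninduced ER-Src footprints (SD, n = 4) and 3.78 ± 1.04 CPM in EH (SD, n = 2), a log2 difference of 5.89 ± 0.36 (adjusted p = 4.09e-11). PLA2G4A averaged 31.8 ± 4.92 CPM in uninduced ER-Src and 2.49 ± 0.304 CPM in EH (3.65 ± 0.39, adjusted p = 1.31e-07), and PTGES3 was 1.82-fold higher (adjusted p = 2.07e-06). PTGS1 averaged 11.8 ± 5.28 CPM in uninduced ER-Src and 492 ± 1.048 CPM in EH (−5.34 ± 0.22, adjusted p = 5.64e-14), and PTGS2 15.98 ± 6.62 CPM in uninduced ER-Src and 51.7 ± 4.20 CPM in EH (−1.82 ± 0.29, adjusted p = 2.48e-05). In all, 6 of 7 members tested were called, 4 higher and 2 lower, where 59.1% of 10936 genes were called (29.4% higher, 29.7% lower). The fourth higher one, PTGES2, had 0.46 ± 0.16 (adjusted p = 0.0203) and lost its call in DESeq2 (adjusted p = 0.106) and without EH replicate 1 (0.31, adjusted p = 0.277).

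PTGS2 loading was also higher in uninduced ER-Src cells than in EH, by 2.75 ± 0.49 (adjusted p = 0.00473), the 1 of 8 members tested that was called, where 1.14% of 12143 genes were called (0.716% higher, 0.42% lower). DESeq2 gave PTGS2 no adjusted p for this comparison. PLA2G4E had no count in EH and PTGIS none in ER-Src cells, so their interactions give no usable size. The ratio was 0.774 in uninduced ER-Src cells and 0.114 in EH. ELR against EH uses the same EH libraries, so both interactions share the low PTGS2 loading of EH. Cell type and set of libraries cannot be told apart between the models.

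Per kilobase of coding sequence, mean footprint levels ranked PTGES3 first in both EH (880 CPM per kb) and uninduced ER-Src cells (1626). PTGS1 (274) was next in EH, followed by PTGS2 (28.5) and PTGES2 (27.6), which differed by less than their spread. In uninduced ER-Src cells PTGES (497) was next, followed by PTGES2 (38.1), PLA2G4A (14.2), PTGS2 (8.82) and PTGS1 (6.58). Between libraries, PTGS2 overlapped both PLA2G4A and PTGS1.

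The genes around this pathway were counted from lists, as members called among those tested. Of 9 HSP90 partners of PTGES3, 6 rose in EL against EH and 9 rose in ELR against EH, with none lower and medians of 0.41 and 0.61. Over all genes 19.1% were higher in EL against EH and 25.5% in ELR against EH, with a median of −0.01 in both. FKBP4, an HSP90-binding immunophilin, rose by 1.02 and 1.42 on the log2 scale and HSP90AA1, the inducible HSP90, by 0.36 and 1.00. At 24 h of tamoxifen none of the 9 rose and 1 fell, FKBP4 at −0.55.

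Of 18 known regulators of PTGS2, 15 were tested in the BJ lines and 16 in ER-Src. In EL against EH 4 rose and 3 fell, in ELR against EL 6 rose and 2 fell, and at 24 h of tamoxifen 6 rose and 1 fell, with medians of 0.11, 0.04 and 0.21. Over all genes the shares were 19.1% higher and 22.4% lower, 17.4% and 18.7%, and 8.8% and 5.84% in the same order of comparisons, with a median of −0.01 in each. IL1B, a cytokine that induces PTGS2, rose by 5.74 in ELR against EL. CEBPB, a transcription factor of the PTGS2 promoter, rose by 0.83 in the same comparison and by 1.24 at 24 h. The 2 that fell in ELR against EL were CEBPD, a related transcription factor, with a log2 change of −1.61 (1.26 at 24 h), and CELF2, an RNA-binding protein, which was at 0 CPM in ELR, against a mean of 6.38 CPM in EL. ZFP36, which binds AU-rich elements and speeds message decay, fell by 1.12 in EL against EH and rose by 2.27 at 24 h, alongside FOS at 2.93. ELAVL1, which stabilises such messages, rose by 0.41 in EL against EH.

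Arachidonate supply and re-esterification enzymes numbered 16 tested of 19 in the BJ lines, of which 2 rose and 9 fell in ELR against EH (median −0.36), where 25.5% of all genes were higher and 27.8% lower, and FADS2, a desaturase of arachidonate synthesis, fell by 2.50. At 24 h of tamoxifen 5 of 15 tested rose and 2 fell (median 0.29), where 8.8% of all genes were higher and 5.84% lower, with ACSL1 and ACSL4, which activate fatty acids with coenzyme A, at 1.46 and 1.06. Of prostaglandin breakdown and transport genes, 3 of 6 tested were lower and none higher in ELR against EH (median −0.58), and 1 of 8 tested went each way at 24 h (median −0.49), beside the same shares of all genes. SLCO2A1, the prostaglandin uptake transporter, was lower in ELR, at 0 CPM, against a mean of 5.75 CPM in EH (adjusted p = 3.51e-05), and rose by 1.58 at 24 h.

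Receptors and parallel branches were sparse. Among all genes tested, 25.5% were higher and 27.8% lower in ELR against EH. The shares were 19.1% and 22.4% in EL against EH, and 8.8% and 5.84% at 24 h of tamoxifen. Of 9 prostanoid receptors 3 were tested in the BJ lines, and PTGFR and PTGIR, the receptors of prostaglandin F2 alpha and prostacyclin, fell by 2.41 and 1.47 in ELR against EH. Of 18 other phospholipases A2, 3 were tested in the BJ lines, where PLA2G16 rose by 2.42 and PLA2G15 fell by 0.70 in ELR against EH. In ER-Src 3 were tested. PLA2G4D, a relative of PLA2G4E, averaged 8.75 CPM at 24 h and 0.131 CPM in uninduced cells (adjusted p = 4.43e-05) and was the only 1 of these 3 called there. Of 7 other prostanoid synthases 3 were tested in the BJ lines, and AKR1B1 and FAM213B fell by 0.89 and 0.96 in ELR against EH, with none higher. In the lipoxygenase branch 2 genes were tested in the BJ lines and 3 in ER-Src footprints. Of these LTA4H, the leukotriene A4 hydrolase, rose by 0.55 in EL against EH and by 0.40 at 24 h.

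Over the 7 cycloheximide conditions, among 9860 genes with at least 10 CPM in 1 condition, the genes whose mean log2 levels were most like PTGS1 were MRAS (Pearson r = 0.988), HSD17B11 (0.986) and ANXA5 (0.985). For PTGS2 they were FBXO33 (0.932), CDK16 (0.918) and ZBTB10 (0.916), and for PTGES SPINT1 (0.998), INADL (0.998) and TMEM238 (0.997). These are descriptions over 7 means that share libraries, with no test.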

How the data were processed

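Ribosome footprints and RNA were measured in 36 libraries. The deposited values are whole-number counts per transcript. Per the submitters' processing notes TopHat and hg19 were used, and the counting program and its strand setting are not given in the sources used here. From these counts, CPM was computed with trimmed-mean (TMM) normalisation within each assay, and each symbol kept the transcript with the highest mean count.

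Differences were tested with edgeR 4.0.16 (R 4.3.3), quasi-likelihood, after removing genes under a minimum count of 10 (total 15), with Benjamini-Hochberg adjustment over all genes tested. Loading was the interaction of assay and condition, where a single RNA library is assumed to vary like the replicated groups. The groups fitted were the 3 BJ lines, the ER-Src conditions, or both for uninduced ER-Src against EH. DESeq2 1.42.0 was an alternative, as were other size factors, no filter, a replicate block, other sets of uninduced libraries and leaving out each library. Intervals are given at 95%, and a floor of 3 counts stands for 0. Those of the edgeR fits are approximate, since their SE is the log2 change divided by the square root of F. The scripts were tested on simulated data.

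The 8 genes and the lists around them were chosen with earlier results of these data known. Beside them, the text names the 3 genes most correlated with PTGS1, PTGS2 and PTGES, and list genes only where called. Gene models and start codons are from GENCODE on GRCh37.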

Additional observations from a re-analysis of the deposited data

Results flagged for a closer look

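One value stood apart from its group. PLA2G4E RNA was 1.4 CPM (4 counts) in the ethanol 1 h library, while the other 3 uninduced RNA libraries had 0. It was the only one of the 14 groups of 4 libraries examined in which a value stood so far from the rest. With 3 libraries at 0, any count in the fourth stands apart in this way.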

How the results depend on the processing

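Of 452 values of 42 results on the members, 401 kept their direction and their side of the threshold. DESeq2 called fewer genes in BJ footprints (2461 for EL against EH, 1822 for ELR against EL), harringtonine (255 for EL against EH, 187 for ELR against EL, 491 for ELR against EH), BJ loading (237, 104 and 292 in the same order) and 24 h RNA (447 genes, 0 members), and more at 1 h (8 in footprints, 4 in RNA) and in 24 h loading (76). One fit of all 16 cycloheximide libraries called 2608 genes (EL against EH), 1781 (ELR against EL), 7 (1 h) and 5 members (24 h against 1 h). One fit of all 26 libraries, chosen after seeing the data, called 7, 2 and 60 genes in BJ loading and 0 members for ELR against EL. No filter gave 2 members in ELR against EH harringtonine, 22 genes (1 h) and 175 (4 h) in footprints, 6 (1 h) and 35 (4 h) in RNA with 1 member at 4 h and 2 at 24 h, and 237 in uninduced ER-Src against EH loading. Ethanol libraries alone gave 56 genes at 4 h in footprints, and 0 (1 h) and 10 (4 h) genes and 2 members (24 h) in RNA. Replicate 2 alone gave 0, 3 and 510 genes at 1, 4 and 24 h and 0 (4 h) and 2 (24 h) members. PTGS2 24 h loading changed sign to 0.034 with RLE size factors and 0.071 with no filter, and PLA2G4E 24 h loading to 0.12 with ethanol libraries. The cause of these shifts was not tested. With the replicate block, 1 h called 4 genes in place of 2, and the block changed no member call. Same-numbered libraries correlated at −0.01 to 0.03 in BJ and 0.04 to 0.19 in ER-Src, so the numbers were not taken as pairs.

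Leaving out 1 library gave these ranges of genes called: 3059 to 3711 for EL against EH, 2577 to 3077 for ELR against EL and 4330 to 4892 for ELR against EH in footprints; 414 to 456, 347 to 396 and 716 to 869 in harringtonine; 581 to 703, 191 to 305 and 549 to 682 in loading. At 1, 4 and 24 h footprints gave 0 to 6, 9 to 82 and 703 to 1960, 24 h against 1 h 488 to 948, RNA 0 to 14, 4 to 99 and 364 to 1595 (364 without the ethanol 1 h library, 440 without ethanol 4 h, 1595 without ethanol 24 h), and 24 h loading 11 to 63 (11 without tamoxifen 24 h replicate 1, 31 without the ethanol 4 h RNA library). Uninduced ER-Src against EH gave 5213 to 6419 in footprints and 33 to 178 in loading (33 and 35 without an EH library, 90 without the ethanol 1 h RNA library, 94 to 122 without an uninduced footprint library), fits chosen after seeing the data. Members called ran from 3 to 4 (ELR against EL footprints), 0 to 1 (its loading), 2 to 4 (24 h footprints), 1 to 3 (24 h against 1 h), 0 to 1 (4 h RNA), 1 to 3 (24 h RNA) and 5 to 7 (uninduced ER-Src against EH). Loading values near 0 changed sign: PTGS2 at 24 h ran from −0.295 to 0.156 over footprint libraries and between 0.049 and 0.162 without the ethanol 1 h or 4 h RNA library (−0.49 to 0.17 over all), PLA2G4E at 24 h from −0.90 to 0.086 over footprint libraries (−3.50 over all) and PTGS1 in EL against EH from −0.037 to 0.25. Depth limited harringtonine libraries and genes with few counts.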
